A study of Arabidopsis thaliana with 30 samples.

Results

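Transcript levels of 10 heat shock transcription factor (HSF) genes were described in whole Arabidopsis thaliana seedlings that were wild type or carried altered levels of mitochondrial calcium uniporter (MCU) genes. The genes were HSFA1A, HSFA1B, HSFA1D, HSFA1E, HSFA2, HSFA3, HSFA7A, HSFA7B, HSFB2A and HSFB2B, taken by gene ID from 9 expression tables that together list 24721 genes. All 10 were listed in every table, and all 10 passed the filter on low values, a mean of at least 1 over the libraries of a comparison, in every comparison.

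HSFs are the DNA-binding proteins through which a plant cell turns heat or damage to its proteins into transcription of chaperone genes. They bind heat shock elements, which are inverted repeats of the motif GAA. Class A members carry an activation domain, and class B members lack it and often act as repressors. In Arabidopsis the HSFA1 proteins are present before stress, where the chaperones HSP70 and HSP90 hold them back, and once released they switch on the genes of further HSFs. HSFA2, HSFA7A and HSFA7B are such heat-induced factors, HSFA3 is switched on by the drought and heat regulator DREB2A, and HSFB2A and HSFB2B are class B factors.

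The seedlings were 10 days old and of 5 genotypes: Col, the Col-0 wild type; 2OX, 4OX and 6OX, which overexpress MCU2, MCU4 or MCU6 from the constitutive 35S promoter, each as a chosen transgenic line; and sextuple, the mcu1-6 knockdown line, built by crossing T-DNA insertion and CRISPR alleles. MCU proteins carry calcium into the mitochondrial matrix. Each genotype was given 50 µM antimycin A (AA), which blocks complex III of the mitochondrial electron transport chain, or its solvent DMSO (CK), for 5 h according to the labels, whereas the methods of the study give a shorter time. All seedlings, controls included, had spent the night before in liquid medium in the dark with shaking. Each of the 10 groups had 3 libraries, described as biological replicates.

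The tables contradict each other about which libraries were treated. In the 5 tables that set AA against CK within a genotype, the 15 columns headed AA hold the same reads, gene by gene, as the 15 columns headed CK in the 4 tables that set a line against Col. These 15 are called here the shared libraries, and the other 15, headed CK and present only in the AA tables, the AA-table-only libraries. Group names with AA or CK follow the AA tables, and a difference between the arms is the shared minus the AA-table-only value. If the headings of the line tables are the right ones, every such difference has to be read in the opposite direction. AOX1A, the alternative oxidase gene that is known to rise when antimycin A blocks complex III, had 16392 to 32873 normalized counts in the AA-table-only libraries and 5198 to 11309 in the shared ones, which goes against the headings of the AA tables.

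The libraries held 2.56 to 39.1 M assigned reads with a median of 29.7 M, and the shallowest, replicate 1 of the shared 2OX libraries, had 2.56 M where the next had 11.8 M. The Col AA-table-only libraries had 1.47 to 6.24% of their reads in ribosomal RNA genes, against 0.0531 to 0.0678% in the Col shared ones. Levels are normalized counts, that is, reads divided by a size factor set over all 30 libraries, and folds were fitted within each comparison on log2(value + 1). MCU2 in 2OX was at 14219 to 17339 normalized counts in the AA-table-only arm and at 6752 to 9253 in the shared arm, against 368 to 549 in Col. MCU4 in 4OX was at 8360 to 9595 and 3499 to 3791 in the same order, and at most 37.1 in Col. The levels of MCU2 in 2OX and of MCU4 in 4OX thus differed between the arms without overlap. MCU6 was at 1573 to 1629 in 6OX against 752 to 899 in Col in the AA-table-only arm and at 525 to 875 against 165 to 267 in the shared arm. In sextuple MCU6 was at 400 to 532 and 61.4 to 97.3 in the same arms, whereas MCU2, at 441 to 617, was not below Col. All 4 shoot and all 4 root markers of the fixed lists were detected. Shoot markers summed to 158852 to 588478 in the AA-table-only and 69614 to 459862 in the shared libraries, and root markers to 2069 to 5727 and 2704 to 4528. CRA1, a seed storage protein gene that marks maturing seed, was at 0 to 219. The Col AA-table-only libraries lay above every other library in this gene. CRA1 was the only listed marker of maturing seed with levels over all 30 libraries. In whole seedlings fewer cells of a type and less RNA per cell cannot be told apart.

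The stretches before the start of HSFA2, HSFA7A and HSFA7B are shown because these 3 of the 10 genes carried a 3-unit heat shock element, GAANNTTCNNGAA or TTCNNGAANNTTC, within the 250 bases upstream of the annotated gene start. Each is 100 bases of the plus strand of TAIR10.1, 5′ to 3′, and the capitals mark matches to the 3-unit element or to its 2-unit part, GAANNTTC or TTCNNGAA.
HSFA2, chr2:11135524-11135623: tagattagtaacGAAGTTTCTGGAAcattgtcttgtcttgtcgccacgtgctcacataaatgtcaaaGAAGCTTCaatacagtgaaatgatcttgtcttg
HSFA7A, chr3:19264941-19265040: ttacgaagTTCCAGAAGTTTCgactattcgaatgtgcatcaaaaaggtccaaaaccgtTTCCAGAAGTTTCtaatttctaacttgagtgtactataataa
HSFA7B, chr3:23399066-23399165: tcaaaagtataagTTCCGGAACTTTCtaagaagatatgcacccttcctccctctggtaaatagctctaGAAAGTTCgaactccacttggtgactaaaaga

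The 3-unit element was rare among promoters: 106 of 27443 windows of the same length, 0.386%, held it on either strand. HSFA2 had it at position -88 from the gene start, HSFA7B at -157, and HSFA7A had it at -192 and again at -142. The 2-unit part alone, which every 3-unit match contains, was in 4 of the 10 windows, the additional one being that of HSFA1E at -44, and in 16.1% of all windows. The DREB binding motif, ACCGAC or GCCGAC, lay before HSFA1A at -120 and before HSFB2A at -71, against 7.09% of all windows. It was not in the 250 bases before HSFA3, and sequence farther upstream was not searched. The windows of HSFA1A, HSFA1B, HSFA2 and HSFA3 include exon bases of a neighbouring gene. The mitochondrial dysfunction motif, CTTGNNNNNCAAG or CTTGNNNNNCACG, was in none of the 10 windows and in 1.20% of all. Matches are descriptions of the letters in these windows and were not tested as binding sites.

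**Figure D1:**
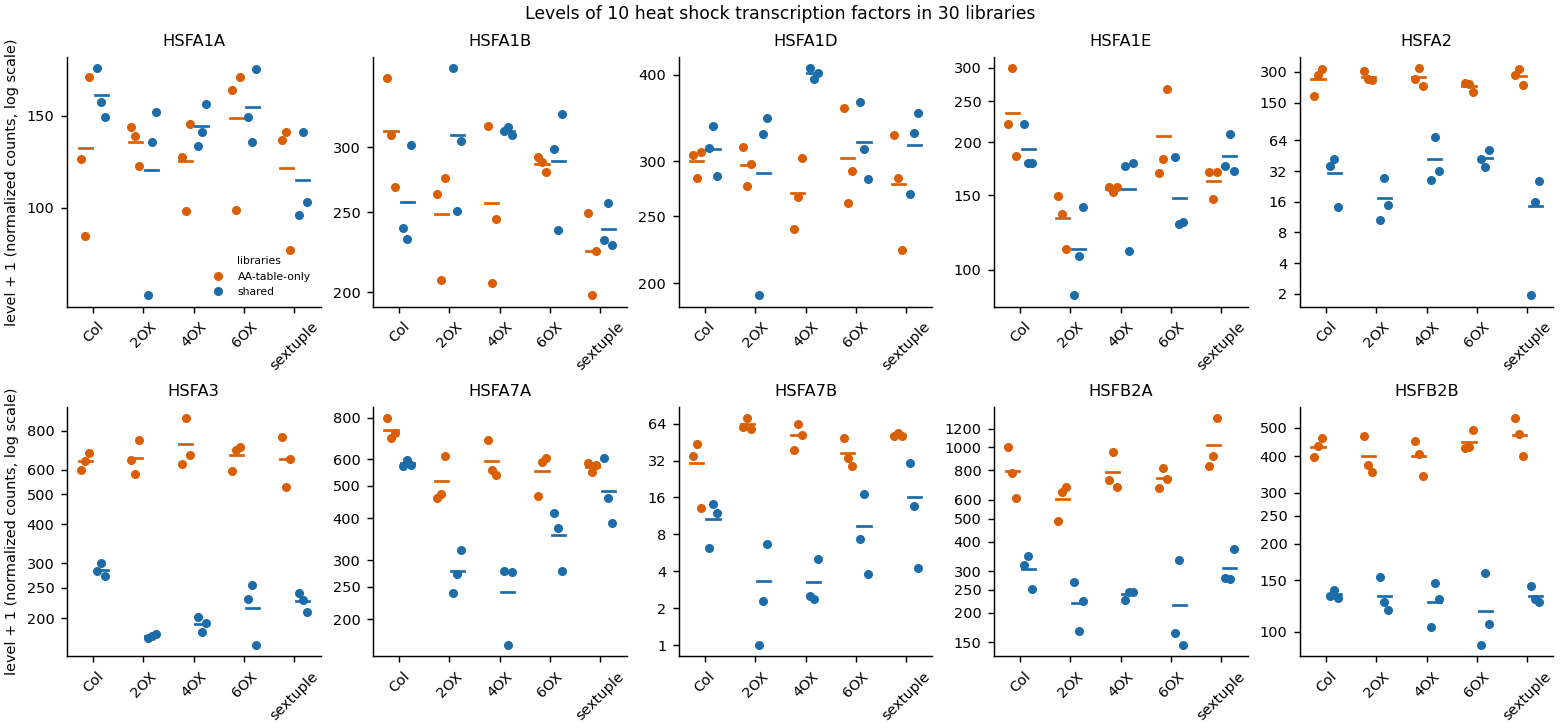
Level of each HSF gene (normalized counts plus 1, log axis) by genotype, each point a library, with the shared and the AA-table-only libraries in separate colours. The 2 arms do not overlap for HSFA2, HSFA3, HSFB2A and HSFB2B, and they overlap for the 4 HSFA1 genes, HSFA7A and HSFA7B.

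The 4 HSFA1 genes, whose proteins stand at the head of the response, had similar levels in the 2 arms of the experiment. HSFA1A (AT4G17750, chromosome 4, 9869818 to 9871646, minus strand) ranged from 82 to 177 normalized counts with a median of 134 in the AA-table-only libraries and from 66.9 to 184 with a median of 139 in the shared ones. Its lowest value, in the shallowest library, rested on 7 reads. HSFA1B (AT5G16820, chromosome 5, 5530195 to 5532889, plus strand) ranged from 197 to 363, median 267, and from 228 to 373, median 298, in the same order. It overlaps AT5G16830 on the opposite strand, so its level is uncertain where reads were counted without strand.

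HSFA1D (AT1G32330, chromosome 1, 11656964 to 11660471, minus strand) ranged from 222 to 357 normalized counts, median 290, in the AA-table-only libraries and from 191 to 407, median 328, in the shared ones. HSFA1E (AT3G02990, chromosome 3, 673428 to 676428, plus strand) ranged from 111 to 298, median 169, and from 86 to 220, median 175. The arms overlapped for each of the 4 genes. Within genotypes, none of the 20 comparisons of arms for HSFA1 genes was called, that is, none had a Benjamini-Hochberg adjusted p under 0.05 with a fold over 1.5 in limma. Of the 20, 1 had an unadjusted p under 0.05, and edgeR and DESeq2 called 0 as well. This was HSFA1D, which had, in 4OX, shared libraries at 407, 394 and 401 and, without overlap between the arms, a log2 difference of 0.57 ± 0.13 (SE, n = 3 per arm; limma adjusted p = 0.0112), just under the fold threshold. It was called without replicate 3 of the AA-table-only 4OX libraries (0.65), and with scaling by library totals (0.83), a scaling that moved the median of all genes in the arm comparisons up by 0.20 to 0.29.

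HSFA2 (AT2G26150, chromosome 2, 11135624 to 11137792, plus strand), which prolongs thermotolerance after a first heat exposure, was lower in the shared libraries of every genotype. In Col it had 172, 277 and 321 normalized counts in the AA-table-only libraries and 34.9, 41.3 and 13.1 in the shared ones. 2OX had 303, 254 and 248 against 9.56, 26.1 and 13.8, where the 9.56 stands for 1 read. 4OX had 258, 324 and 219 against 25.4, 67.7 and 31.3. All 15 AA-table-only libraries thus lay above all 15 shared libraries.

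In 6OX the HSFA2 levels were 230, 229 and 188 in the AA-table-only and 41, 34.4 and 50.3 in the shared libraries. The sextuple line had 278, 322 and 225 against 0.931, 15.1 and 24.6, and the lowest of these again was 1 read. The log2 difference was -3.14 ± 0.43 in Col (SE; limma adjusted p = 0.000775), -4.03 (2OX), -2.78 (4OX), -2.35 (6OX) and, in the sextuple line, -4.92 ± 0.82 (limma adjusted p = 0.00219). HSFA2 was called lower in all 5 genotypes, with the largest estimate in sextuple and the smallest in 6OX. The sizes in sextuple and 2OX include libraries with 1 read and depend on the added count of 1. In none of the 4 lines was the difference between the arms called as differing from that of Col (limma adjusted p = 0.443 to 0.842). Within each arm the genotypes overlapped with their neighbours in the order of means.

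HSFA3 (AT5G03720, chromosome 5, 971142 to 974326, minus strand), the factor downstream of DREB2A, was also lower in every shared library than in any AA-table-only library. Col had 599, 639 and 678 normalized counts in the AA-table-only libraries and 282, 300 and 273 in the shared ones. In 2OX the values were 643, 579 and 743 against 172, 175 and 177. In 4OX they were 627, 878 and 667 against 201, 180 and 192. The shared 2OX and 4OX libraries lay close together and below those of Col.

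For 6OX, HSFA3 was at 592, 693 and 710 and at 229, 254 and 163. For sextuple it was at 763, 528 and 650 and at 239, 228 and 209. The log2 difference was -1.14 ± 0.12 in Col (SE; limma adjusted p = 0.000196), -1.90 (2OX), -1.91 (4OX), -1.65 (6OX) and -1.5 (sextuple), all called. In the order of means the 5 AA-table-only groups came first and overlapped in turn, then Col at 285 ± 13.5 (SD, n = 3), which did not overlap with the next, and 2OX at 174 ± 2.38 was last, not overlapping with 4OX at 191 ± 10.8. HSFA3 overlaps AT5G03710, so that its level too is uncertain without strand.

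HSFA7A (AT3G51910, chromosome 3, 19265141 to 19266806, plus strand), a heat-induced factor, differed between the arms by less than HSFA2 in each genotype and was called in 3 of the 5. Col had 796, 694 and 717 normalized counts in the AA-table-only and 574, 598 and 577 in the shared libraries, without overlap, and the log2 difference of -0.31 was not called (limma adjusted p = 0.0586). 2OX had 459, 473 and 612 against 239, 272 and 321, a log2 difference of -0.90 (limma adjusted p = 0.0045). 4OX had 683, 559 and 536 against 277, 167 and 275, a log2 difference of -1.34 (limma adjusted p = 0.00182). HSFA7A was thus lower in the shared libraries of 2OX and 4OX.

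In 6OX the HSFA7A levels were 467, 590 and 606 against 414, 373 and 278, with a log2 difference of -0.65 ± 0.20 (SE; limma adjusted p = 0.0305). This call was lost with scaling by library totals (adjusted p = 0.15), without the mean-variance trend (0.0737) and without replicate 2 or 3 of the AA-table-only or replicate 3 of the shared 6OX libraries. In sextuple they were 585, 548 and 578 against 605, 460 and 385, a log2 difference of -0.26 (limma adjusted p = 0.336), with overlapping arms. Over all 10 groups, Col stood highest in the AA-table-only arm with a mean of 736 ± 53.8 (SD, n = 3), above the next group without overlap, and the lowest mean was that of the shared 4OX libraries, 240 ± 63.3.

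HSFA7B (AT3G63350, chromosome 3, 23399236 to 23400812, plus strand), the close relative of HSFA7A, had the lowest median per kilobase of exon of the 10 genes in both arms. In 2OX it had 59.5, 70.1 and 57 normalized counts in the AA-table-only and 0, 1.3 and 5.66 in the shared libraries, which were 0, 1 and 9 reads. In 4OX it had 38.1, 63.2 and 50.8 against 1.49, 1.37 and 4.01, or 2, 2 and 5 reads in the shared libraries. The log2 differences of -4.44 and -4.15 (limma adjusted p = 0.000932 and 0.000373) depend on the count of 1 added to so few reads, while the direction was the same in every library.

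In Col, HSFA7B was at 33.7, 42.4 and 12.1 against 5.19, 13.1 and 11, overlapping, with a log2 difference of -1.38 ± 0.57 that was not called (SE; limma adjusted p = 0.112). It was called by DESeq2 (-1.60, adjusted p = 0.0485) and without replicate 3 of the AA-table-only libraries. In 6OX it was at 47.9, 32.6 and 27.7 against 6.3, 16 and 2.79, a log2 difference of -2.22 (limma adjusted p = 0.018), lost without replicate 1 of either arm. In sextuple it was at 49.5, 53.1 and 49.7 against 29.8, 12.6 and 3.27, a log2 difference of -2.11 (limma adjusted p = 0.0352), which edgeR did not call (adjusted p = 0.054) and which was lost without the mean-variance trend (0.0773) and without replicate 1 or 2 of the AA-table-only or replicate 2 or 3 of the shared libraries. The shared 4OX and 2OX libraries had the lowest means, 2.29 ± 1.49 and 2.32 ± 2.97 (SD, n = 3), and both overlapped with the shared libraries of 6OX and sextuple, while against the shared Col libraries 2OX overlapped and 4OX lay wholly below.

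HSFB2A (AT5G62020, chromosome 5, 24915807 to 24917643, plus strand), a class B factor, was lower in the shared libraries of all genotypes. Col had 1004, 775 and 607 normalized counts in the AA-table-only and 318, 345 and 250 in the shared libraries. 2OX had 488, 644 and 680 against 268, 167 and 223. In 4OX the levels were 726, 954 and 676 against 226, 245 and 244. None of the libraries of one arm reached the range of the other.

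The levels of HSFB2A in 6OX were 673, 818 and 730 against 164, 332 and 145. Those of sextuple were 834, 913 and 1328 against 278, 277 and 372, and the 1328 was the highest level of this gene in all 30 libraries. The log2 differences were -1.34 ± 0.19 in Col (SE; limma adjusted p = 0.000981), -1.48 (2OX), -1.71 (4OX), -1.89 (6OX) and -1.71 (sextuple), all called.

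HSFB2B (AT4G11660, chromosome 4, 7042354 to 7044708, plus strand), a class B factor known as a repressor of heat-induced HSF genes, was lower in the shared libraries by a similar amount in every genotype. In Col it had 395, 432 and 462 normalized counts in the AA-table-only and 132, 138 and 130 in the shared libraries. In 2OX there were 468, 373 and 352 against 153, 125 and 118. In 4OX there were 450, 404 and 342 against 103, 146 and 128. The genotypes overlapped in each arm.

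For HSFB2B in 6OX the values were 424, 428 and 490 against 89, 157 and 105. In sextuple they were 539, 477 and 399 against 142, 128 and 125. The log2 differences were -1.65 ± 0.15 in Col (SE; limma adjusted p = 8.03e-05), -1.59 (2OX), -1.67 (4OX), -1.96 (6OX) and -1.82 (sextuple), all called. HSFB2B overlaps AT4G11670 and the long non-coding RNA gene AT4G05910 on the opposite strand.

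**Figure D2:**
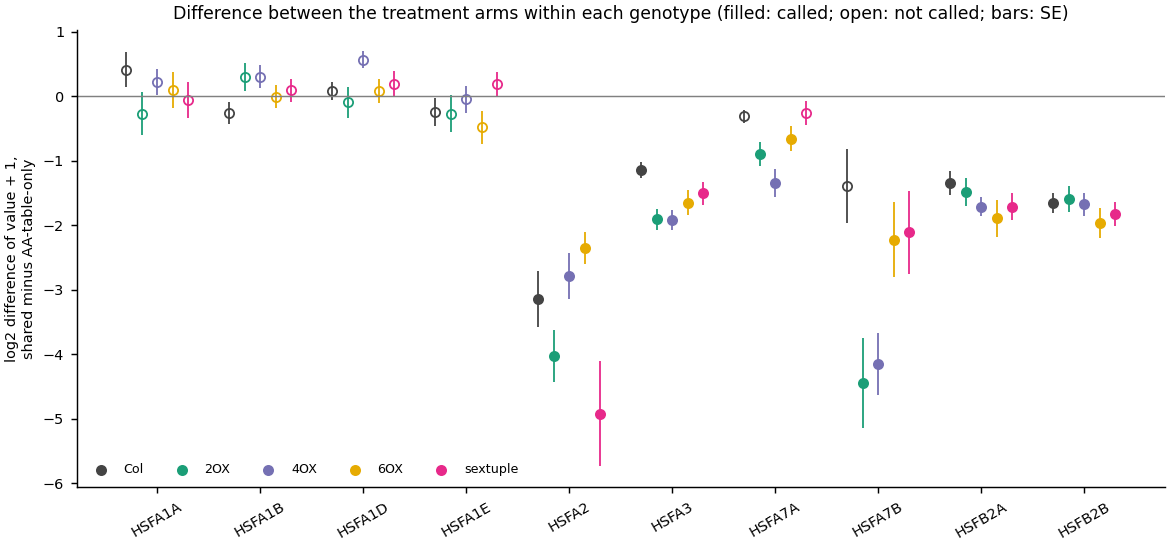
Log2 difference of value + 1 between the arms, shared minus AA-table-only, for each gene (x axis) and genotype (colour), with standard errors and filled points for called differences. HSFA2, HSFA3, HSFB2A and HSFB2B are below 0 and filled in all 5 genotypes, and the HSFA1 genes lie around 0 with open points.

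Over the 10 genes, 27 of the 50 within-genotype comparisons of the arms were called, all of them lower in the shared libraries. By genotype they were 4 genes in Col, 6 each in 2OX, 4OX and 6OX, and 5 in sextuple. Among all tested genes the share called lower was 7.81% (Col), 14.1% (2OX), 12.9% (4OX), 13.7% (6OX) and 13.4% (sextuple). HSFA2, HSFA3, HSFB2A and HSFB2B were called in all 5 genotypes. The arms did not overlap in 30 of the 50 comparisons, and over all tested genes they did not overlap for 42.1% (Col), 47.3% (2OX), 49.1% (4OX), 44.6% (6OX) and 43.7% (sextuple). The median log2 difference of the 10 genes was -0.72 (Col), -1.19 (2OX), -1.51 (4OX), -1.15 (6OX) and -0.88 (sextuple), and that of all genes lay between -0.04 and 0.02. The 4 root markers moved with the arms in different directions: COBL9 and CASP1 were called higher in the shared libraries of all 5 genotypes, MYB36 lower in Col, 6OX and sextuple, and PHT1;1 lower in 2OX and higher in 6OX. Their sum was 2139 to 3565 in the AA-table-only and 3839 to 4249 in the shared libraries of Col, 4546 to 5727 and 3307 to 4444 in those of 2OX, 3338 to 3657 and 3091 to 3895 for 4OX, 2069 to 2582 and 3074 to 4528 for 6OX, and 2273 to 3007 and 2704 to 2859 for sextuple. CRA1 was called lower in the shared libraries of Col and was not called between the arms in the other genotypes. The part of the root markers and of CRA1 in the results was not tested.

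Per kilobase of exon, HSFA7A had the highest median level of the 10 in both arms, 504 normalized counts per kilobase in the AA-table-only and 322 in the shared libraries. HSFB2A followed in the AA-table-only arm with 416, then HSFA3 with 294, HSFB2B with 189, HSFA1D with 139, HSFA2 with 135 and HSFA1B with 133. HSFA1E with 87.2, HSFA1A with 79.7 and HSFA7B with 45.7 were lowest there. In the shared arm HSFA1D with 157 and HSFA1B with 148 came next to HSFA7A, ahead of HSFB2A with 143 and HSFA3 with 94.4, and HSFA2 with 13.9 and HSFA7B with 4.80 were last. The order of the family thus differed between the arms: HSFA1B and HSFA1D stood behind HSFA3 in the AA-table-only and ahead of it in the shared libraries.

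The next question was whether a changed MCU dose changed the HSF genes. Each line was set against Col within the shared arm, as in the line tables, and within the AA-table-only arm, and all lines were compared with the same 3 Col libraries in each. In the shared arm 3 of 40 comparisons were called, 2 in 2OX and 1 in 4OX, all lower than Col, and in the other arm 1 of 40, in 2OX, again lower. The share of all genes called lower in the shared arm was 3.44% (2OX), 2.76% (4OX), 0.0604% (6OX) and 0.768% (sextuple), and in the AA-table-only arm 7.33%, 4.95%, 0.289% and 0.742%. An unadjusted p under 0.05 was found in 10 of the 40 comparisons of the shared and 8 of the 40 of the AA-table-only arm, edgeR called 3 and 1, and DESeq2 called 4 and 2. Without the mean-variance trend in limma none of the 4 calls passed (adjusted p = 0.0536 to 0.0806). Shoot markers moved with the lines. In the AA-table-only arm they summed to 319828 to 588478 in Col, 158852 to 201841 in 2OX, 201063 to 264429 in 4OX, 282131 to 422487 in 6OX and 239581 to 520680 in sextuple, and 4, 3, 1 and 1 of the 4 were called lower than Col in these lines. In the shared arm Col had sums of 338185 to 363809, 2OX of 160180 to 189991, 4OX of 69614 to 207910, 6OX of 186720 to 370410 and sextuple of 258359 to 459862, and 2 of the 4 were called lower in 2OX. The 2OX and 4OX sums lay wholly below those of Col in both arms. CAB1 weighed most in the sums, with a median level of 198087 over all libraries against 51740.5 for RBCS1A, the next. In the AA-table-only arm CAB1 of sextuple overlapped with Col (log2 difference -0.20). RBCS1A (-1.06), RBCS2B (-1.45) and RCA (-0.75) lay below Col without overlap there. CRA1 was called lower than Col in 2OX, 4OX and 6OX in the AA-table-only arm, and in 4OX in the shared arm. The part of the shoot markers and of CRA1 in the results for the lines was not tested.

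HSFA3 was lower in the shared libraries of 2OX than in those of Col, with a log2 difference of -0.69 ± 0.17 (SE; limma adjusted p = 0.0366). The 3 2OX values, 172 to 177, lay wholly below the 3 of Col, 273 to 300. The call was lost without replicate 2 of 2OX (adjusted p = 0.0976) and without any of the 3 Col libraries (0.113 to 0.172). For 4OX it was -0.56 (adjusted p = 0.031, under the fold threshold), for 6OX -0.41 (0.327) and for sextuple -0.33 (0.169). All 4 lines lay below Col without overlap, where 33.7%, 36.7%, 21.5% and 27.1% of all genes did not overlap. In the AA-table-only arm HSFA3 was not called in any line, and its groups overlapped with Col.

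HSFA7A was below Col in the shared arm, with log2 differences of -1.07 ± 0.16 for 2OX (SE; limma adjusted p = 0.00588) and -1.30 ± 0.20 for 4OX (adjusted p = 0.0208). The 4OX call was lost without replicate 3 of 4OX (0.0505) or any of the 3 Col libraries (0.0646 to 0.11). Its log2 difference was -0.72 in 6OX (limma adjusted p = 0.105; DESeq2 adjusted p = 0.00796) and -0.29 in sextuple (0.305). The AA-table-only arm gave -0.54 for 2OX (adjusted p = 0.0176, under the fold threshold), -0.32 for 4OX, -0.42 for 6OX and -0.39 for sextuple. HSFA7A did not overlap with Col in 7 of these 8 comparisons, sextuple in the shared arm being the exception, and over all genes of the AA-table-only arm 40%, 32.6%, 20% and 21.5% did not overlap in the same order of lines.

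HSFA1E was lower in 2OX than in Col in the AA-table-only arm, at 149, 134 and 111 against 219, 298 and 185 normalized counts. The log2 difference was -0.83 ± 0.23 (SE; limma adjusted p = 0.0237). The call was lost without replicate 2 or 3 of 2OX or replicate 2 of Col, and with scaling by library totals (adjusted p = 0.0524). The corresponding log2 difference was -0.57 in 4OX (limma adjusted p = 0.0981; DESeq2 adjusted p = 0.0472), -0.19 in 6OX and -0.53 in sextuple. The Col libraries of this arm held 1.47 to 6.24% and the 2OX libraries 0.166 to 2.75% of their reads in ribosomal RNA genes, and the part of that difference in this result was not tested. In the shared arm HSFA1E was at 86 to 140 in 2OX against 178 to 220 in Col. The log2 difference there was -0.80 and was not called. It was called in 1 fit over all libraries (limma adjusted p = 0.0183) and without replicate 3 of 2OX (0.0353). The 4 lines of the shared arm lay between -0.80 and -0.05, none called.

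HSFA7B lay above Col in the AA-table-only arm, with log2 differences of 1.19 (2OX), 0.90 (4OX), 0.40 (6OX) and 0.90 (sextuple), and none of these passed (lowest adjusted p = 0.0836). In the shared arm its log2 difference from Col was -1.91 in 2OX and -1.80 in 4OX (adjusted p = 0.19 and 0.0905). HSFA2, HSFB2A and HSFB2B were not called in any line in either arm, the lowest adjusted p for HSFA2 being 0.315. For the class B genes 0 of 8 comparisons in each arm had an unadjusted p under 0.05 in limma, and edgeR and DESeq2 called 0 too.

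**Figure D3:**
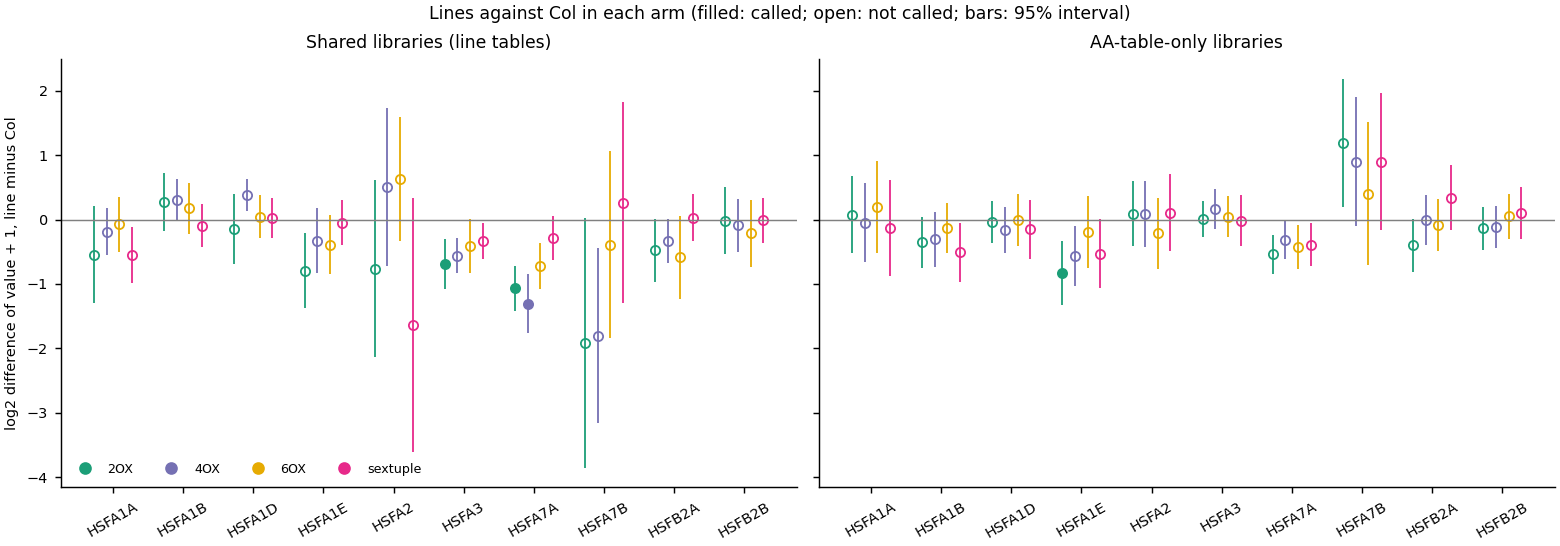
Log2 difference of value + 1 of each line from Col for the 10 genes, in the shared arm and in the AA-table-only arm, with 95% intervals and filled points for called differences. The filled points are HSFA3 and HSFA7A in 2OX and HSFA7A in 4OX in the shared arm, and HSFA1E in 2OX in the other arm, all below 0.

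Whether the difference between the arms itself varied between a line and Col was tested as an interaction over 12 libraries. HSFA3 differed in 2OX, with an additional log2 difference of -0.73 ± 0.19 (SE; limma adjusted p = 0.0404), where 5.13% of all genes were called. This was the only call among 40, and it was lost without the mean-variance trend (adjusted p = 0.0538) and in 8 of the 12 fits that left out a library (adjusted p = 0.0585 to 0.116). Of the 40, 9 had an unadjusted p under 0.05, edgeR called 1 and DESeq2 4. In 4OX the value for HSFA3 was nearly the same, -0.74 (limma adjusted p = 0.105), and HSFA7A had -1.0 there (0.0977). HSFA7B had -3.11 in 2OX (0.0671) and -2.65 in 4OX (0.144), on the few reads given above. DESeq2 called HSFA3, HSFA7A and HSFA7B in 4OX (adjusted p = 0.0184, 0.0122 and 0.0302). Of all genes, 0.426% were called in 4OX, 0.0044% in 6OX and 0.814% in sextuple.

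The genes that HSFs are known to switch on had larger median differences between the arms than the 10 HSF genes. Of 26 heat target genes, 25 were called lower in the shared libraries in each of the 5 genotypes, and ROF1, an immunophilin gene, was the one not called. Among all tested genes the share called lower was between 7.81% (Col) and 14.1% (2OX). Their median log2 difference was -3.14 (Col), -3.66 (2OX), -2.73 (4OX), -2.97 (6OX) and -3.33 (sextuple). The small heat shock protein genes HSP17.6A (-9.76 to -5.60), HSP17.6II (-9.32 to -5.11), HSP21 (-8.62 to -5.44), HSP17.6C (-8.07 to -4.52) and HSP17.8 (-5.50 to -3.82) ranked first by calls over the 17 comparisons, then by mean size. They had near 0 reads in some shared libraries. HSP17.4 (-8.18 to -6.29), HSP22.0 (-7.48 to -5.65) and HSP26.5 (-7.31 to -5.74) also differed between the arms by more than HSP17.8. Of the 26, 3 had the 3-unit heat shock element in the upstream window, HSP17.4, HSP17.6C and GOLS1, and 12 had the 2-unit part. Of all windows, 0.386% held the 3-unit element and 16.1% the 2-unit part.

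Set against Col in the AA-table-only arm, 8 of the 26 heat targets were called higher in 2OX and 11 in 4OX, with list medians of 0.51 in both, where 8.28% and 4.01% of all genes were called higher. The Col libraries of this arm held 11.8 to 21.5 M reads, against 24.7 to 34.3 M in 2OX and 30.1 to 39.1 M in 4OX. Ribosomal RNA genes took 1.47 to 6.24% of the reads in Col, 0.166 to 2.75% in 2OX and 0.0866 to 0.128% in 4OX. The part of these differences in the heat target result was not tested. In 6OX and sextuple limma called 0, against 1.56% and 1.17% of all genes called higher, with 3 and 6 of the 26 at an unadjusted p under 0.05, while edgeR called 0 and 0 and DESeq2 0 and 2. In the shared arm limma called 1 of 24 tested targets higher in 2OX, 4 of 26 in 4OX, 1 of 26 in 6OX and 0 of 25 in sextuple (3 at an unadjusted p under 0.05, edgeR 0, DESeq2 1), where 3.26%, 2.77%, 0.138% and 0.76% of all genes were called higher. DESeq2 called 10 in 4OX there.

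The difference between the arms varied between 2OX and Col for 6 of the 26 heat targets. HSP101 (-0.76), HSP17.6A (-3.41), HSP17.6II (-3.59), HSP17.6C (-3.60) and HSP21 (-3.29) were lower in the shared libraries by a larger difference in 2OX than in Col. For MBF1C, a heat-induced coactivator, the difference was smaller in 2OX (1.16, limma adjusted p = 0.033). HSP17.6A, HSP17.6II, HSP17.6C and HSP21 had near 0 reads in some shared libraries, so their sizes depend on the added count of 1. The shallowest shared 2OX library held 2.56 M reads. Of all genes, 3.25% were called lower and 1.89% higher in this interaction, and the median of the list was -0.39 against -0.07 for all genes. In 4OX, 6OX and sextuple limma called 0 heat targets, with 4, 3 and 2 at an unadjusted p under 0.05, while edgeR called 0 in each and DESeq2 2, 1 and 1.

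Of the 11 other HSF genes, 8 had values, and the other 3, HSFA6A, HSFA9 and HSFB1, could not be tested in any comparison here. HSFA4A was lower in the shared libraries of all 5 genotypes, by log2 differences of -1.98 to -1.22, as was HSFA4C, by -1.06 to -0.78. HSFB3 was called lower in 4 genotypes, and HSFA6B and HSFA8 in 3 each. HSFC1 went the other way, with 2.36 in 4OX, 2.78 in 6OX and 3.32 in sextuple, on low counts. HSFA5 and HSFB4 were not called between the arms. Of all genes, 7.81% (Col) to 14.1% (2OX) were called lower between the arms and 10.4% (Col) to 12.8% (4OX) higher. In the AA-table-only arm 2OX had HSFA4A higher than Col by 0.79 and HSFB4 by 1.75, and HSFA6B lower (-1.24), as in 4OX (-1.29).

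Among 16 regulators of HSFs, DREB2A, which acts upstream of HSFA3, had log2 differences of -4.54 to -3.27 between the arms and was called in all 5 genotypes. DREB2C, which can also switch on HSFA3, had -2.04 to -0.72, and JUB1, a NAC factor that acts on DREB2A, had -2.30 to -0.98. MPK3, a stress-activated kinase, was called lower in 3 genotypes. The chaperone gene HSP90.4 was called higher in 3 genotypes, HSP90.3 in 2 and HSC70-3 in 1. The regulators called lower numbered 3 (Col), 5 (2OX), 3 (4OX), 5 (6OX) and 6 (sextuple), and those called higher 1 (2OX), 3 (4OX) and 2 (6OX). Of all genes, 10.4% (Col), 11% (2OX), 12.8% (4OX), 12.6% (6OX) and 12.6% (sextuple) were called higher between the arms, and the counts of 1 to 3 of 16 called higher are near that background. The share of all genes called lower was 7.81% (Col), 14.1% (2OX), 12.9% (4OX), 13.7% (6OX) and 13.4% (sextuple). The difference between the arms in DREB2C was larger in 2OX than in Col (interaction -1.28).

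**Figure D4:**
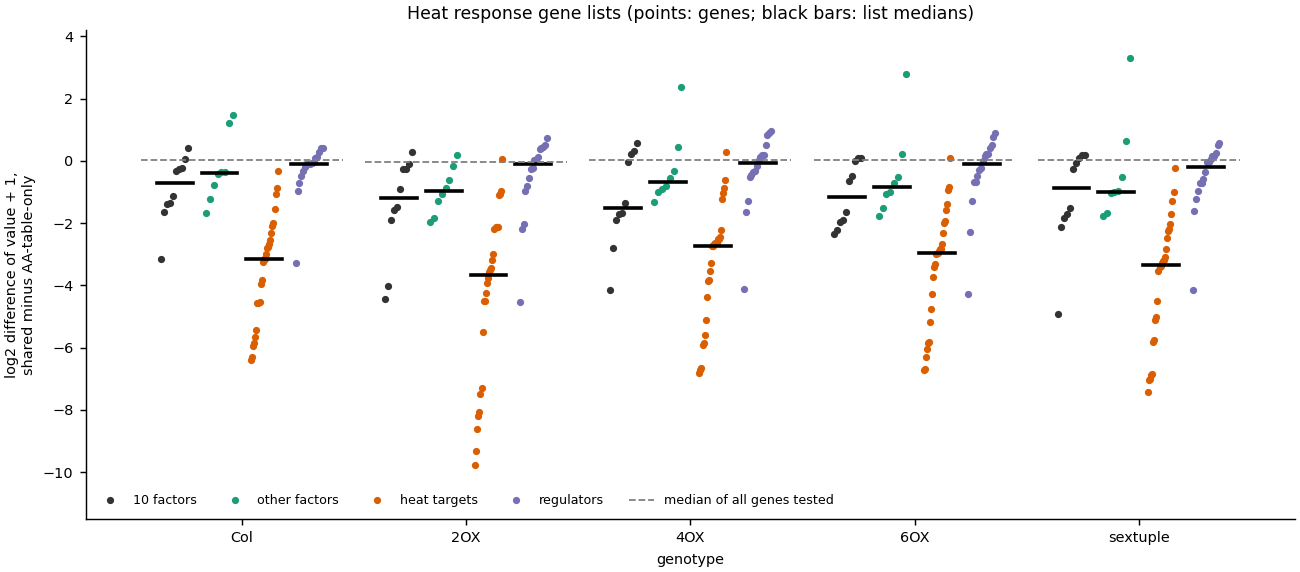
Log2 difference of value + 1 between the arms, shared minus AA-table-only, for each gene of the lists (points) by genotype, with black bars at the list medians. The heat targets have medians between -3.66 and -2.73, and the medians of the 10 HSF genes lie between -1.51 and -0.72.

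Across the 30 libraries, the genes whose log levels ran most like each HSF were found by Pearson's r among 20494 genes, as a description, since the libraries share arms and groups. For the HSFs that differed between the arms the pooled r was high, and the r within the 15 libraries of each arm is given beside it. HSFA2 was most like Hop3, a cochaperone of HSP70 and HSP90, with r = 0.95 (0.57 within the AA-table-only and 0.74 within the shared arm), and next like HSP90.1, 0.94 (0.72 and 0.69). HSFA3 was most like AT4G19880, with 0.98 (0.24 and 0.85), and GSTF8, a glutathione transferase gene, with 0.97 (0.16 and 0.74). HSFA7A was most like ACR9, with 0.96 (0.69 and 0.99).

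HSFB2A was most like MKK9, a mitogen-activated protein kinase kinase gene, with r = 0.98 (0.90 within the AA-table-only and 0.86 within the shared arm), then like the zinc finger gene ZAT6 and the NAC gene ATAF2, both 0.97. HSFB2B was most like AT1G23710, with 0.98 (0.41 and 0.61), and MBF1C stood at rank 3 with 0.97 (0.40 and 0.47). HSFA7B was most like AT2G01300, with 0.92 (0.08 and 0.88). HSFA1E ran with AT1G53250, r = 0.84 (0.74 and 0.93), HSFA1A with SNL5, 0.81, HSFA1D with AT1G03560, 0.79, and HSFA1B with AT1G17940, 0.70.

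Among the 10 genes themselves, HSFA3 and HSFB2B ran together over all libraries, r = 0.95, but not within the arms (0.01 and 0.20). HSFA3 and HSFA7A had 0.76 over all libraries, 0.10 within the AA-table-only arm and 0.86 within the shared arm. The relatives HSFA7A and HSFA7B had 0.78 over all, with opposite signs in the arms, -0.63 in the AA-table-only and 0.79 in the shared libraries. HSFB2A and HSFB2B had 0.92 over all and -0.06 and 0.67 within the arms.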

How the data were processed

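RNA sequencing was done on 30 libraries of whole seedlings. Per the labels, reads were aligned with Bowtie 0.12.2 to TAIR10; the counting tool and its use of strand are not given in the sources used here. The deposited signal values of the 9 tables are whole reads divided by size factors: all 1266084 values of the mapped columns gave whole reads within 0.02. The authors' own columns of group means, log2 fold changes, scores and p-values were not used. The AA tables carry the AA and CK headings used for group names, and headings conflict between tables.

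The 10 genes, the gene lists, the named genes (in each list the 5 called in the most comparisons, then by mean size of the log2 difference, and any called against most of its list) and the tests were chosen with earlier results of these data known. Values of each comparison were rescaled by medians of ratios, and log2(value + 1) of genes with a mean of at least 1 was fitted with limma 3.58.1 with trend (R 4.3.3), with Benjamini-Hochberg adjustment over all genes; a call needed an adjusted p under 0.05 and a fold over 1.5. The 17 comparisons were 5 of arms, 4 lines against Col in each arm, and 4 interactions. Alternatives were edgeR 4.0.16 and DESeq2 1.42.0 on the recovered reads, other scalings, filters, pseudocounts and thresholds, fits without trend, over all libraries or with a replicate block, and each library left out. The fits were tested on simulated data. Same-numbered libraries did not deviate together throughout: no comparison had all 3 correlations over 0.1. Some single pairs were over it. Replicates 2 and 3 had 0.256 and 0.229 in 4OX against Col in the shared arm, and 0.285 and 0.111 in 6OX between the arms. The tables hold no coordinates; positions and upstream windows come from RefSeq's TAIR10.1.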

Additional observations from a re-analysis of the deposited data

Results flagged for a closer look

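The difference between the arms in HSFA3 was wider in 2OX than in Col, and the test of that difference gave -0.73 in log2 units (limma adjusted p = 0.0404, 3 libraries per group). The shared 2OX libraries were at 172, 175 and 177 normalized counts and the shared Col libraries at 282, 300 and 273, while the AA-table-only libraries of the 2 genotypes overlapped. In 4OX the corresponding value was -0.74 and was not called (adjusted p = 0.105). No group was large enough for a check of single libraries that stand apart, which needs at least 4.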

How the results depend on the processing

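In the 5 comparisons of the arms, the counts of the 10 genes called stayed within 1.5 times of those given above under every alternative, and no called value reversed in any of the 17 comparisons. The counts of lines against Col and of interactions rested on adjusted p-values near the threshold. In the shared arm, 2OX against Col gave 2 genes, and 0 without the mean-variance trend, 1 at the stricter threshold (adjusted p under 0.01 and fold over 2), 1 with the replicate block, 4 in 1 fit over all libraries, and 1 to 3 when a library was left out. For 4OX there was 1 gene, and 0 without the trend, 0 at the stricter threshold and 0 to 1 with a library left out. For 6OX there were 0, and 1 with DESeq2, 1 in the fit over all libraries and 0 to 2 with a library left out. In the AA-table-only arm, 2OX gave 1, and 0 without the trend, 0 with scaling by library totals, 0 at the stricter threshold and 0 to 1 with a library left out, and 4OX gave 0, and 1 with DESeq2 and 0 to 1 with a library left out. The interaction of 2OX gave 1, and 0 without the trend, 0 at the stricter threshold, 0 with the replicate block, 2 in the fit over all libraries and 0 to 2 with a library left out, and that of 4OX gave 0, 3 with DESeq2 and 0 to 1 with a library left out. With the replicate block the 2 HSFA3 calls in 2OX had adjusted p = 0.0575 (shared arm) and 0.0563 (interaction), and the block changed no other call of the 10 genes. The cause of these changes was not tested, except that the stricter threshold passes fewer genes by construction. HSFA7B and, in the shared arm, HSFA2 rest on few reads. Median depths differed little between the arms when the genotypes were pooled, but not within each genotype. In Col every AA-table-only library was shallower than every shared library, and in 2OX the median depth was higher in the AA-table-only arm. The part of depth in these results was not tested.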
